A study of Rattus norvegicus with 10 samples.

Results

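The genes described here are the heat shock chaperones of the cytosol and the mitochondrion, measured in the liver of Sprague-Dawley rats, an outbred stock, all of them male. The list holds 10 genes, of which 8 had at least 1 probe set whose platform annotation names that gene alone, giving 12 probe sets of the 31042 tested. Hsp90aa1, the inducible cytosolic Hsp90, lies only on 2 probe sets that name several genes, and Hspa8, the constitutive cytosolic Hsp70, on 1 such probe set. Neither was analysed here. The list was chosen by its exposed minus control values, which an earlier look at these arrays had shown to be mostly below 0, so that those differences are given as a description. The series compares 5 rats given a short-term exposure to bulk drug industry effluent with 5 control rats, and the labels give neither a dose nor a length of exposure. Animals of both groups had the same strain, sex and tissue, and the age is not in the labels. Each array stands for 1 rat, each value is a probe set's log2 expression, and the number of arrays limits the precision.

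Chaperones bind proteins that are unfolded or not yet folded and help them reach or regain their shape. Hsp70 proteins bind short exposed stretches with the help of J-domain proteins, which hand over clients and start the ATP cycle, and of Hsp110 proteins such as Hsph1, which release the nucleotide. Hsp90 acts late, on clients such as kinases and steroid receptors, while small heat shock proteins such as Hspb1 hold unfolded proteins without ATP. In the mitochondrial matrix, Hspd1 (Hsp60) forms a folding chamber that Hspe1 (Hsp10) closes as a lid. Under heat or damage to proteins the factor HSF1 binds inverted repeats of the unit GAA and switches on the inducible chaperones, whereas the constitutive ones are made in unstressed cells as well. Hspb1, Hsph1, Hspa1a and Dnajb1 were treated here as stress-induced, and Hsp90ab1, Dnaja1, Hspd1 and Hspe1 as constitutive. These classes are textbook ones, and several constitutive chaperones also respond to heat.

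The sequences around the start sites of the genes show where the chaperones share that repeat. RefSeq start sites on rat assembly GRCr8 gave a window of 300 bases, with 250 before and 50 after the start, for 9 of the 10 genes. Both strands were searched for GAANNTTC and TTCNNGAA, each a pair of units facing opposite ways, and for runs of at least 3 units in alternating orientation, in which the pairs overlap. A pair was present in 7 of the 9 windows, against 15.9% of 33469 windows of the same length, and a run of 3 or more units in 5 windows, against 0.798%. The runs lay in the windows of Hsph1, Hspa8, Dnaja1, Hspd1 and Hspe1, where Hspd1 and Hspe1 share the same run. That of Dnaja1 lay after the start, at positions 10 to 22, counting 1 as the start base. The windows of Hspb1 and Dnajb1 held separate pairs, and those of Hspa1a and Hsp90ab1 held no match, which says only that these letters are not in these 300 bases. A match is a description of the sequence and not a measured binding site.

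Hspd1 and Hspe1 are printed first because they lie head to head on chromosome 9, with their starts 290 bases apart, and 211 bases belong to both windows. The capitals mark the run of 18 bases, which lies at positions -65 to -48 from the start of Hspe1 and -242 to -225 from that of Hspd1 on the other strand, counting -1 as the base before the start. The shared stretch, on the plus strand, is chr9:64084077-64084287.
Hspd1 and Hspe1: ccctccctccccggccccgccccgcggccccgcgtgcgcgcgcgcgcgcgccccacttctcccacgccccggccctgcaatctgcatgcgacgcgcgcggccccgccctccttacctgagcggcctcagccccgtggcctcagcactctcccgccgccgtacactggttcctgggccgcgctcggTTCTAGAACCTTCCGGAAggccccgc

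The other sequences show the run or pair nearest to the start of Hsph1, Dnaja1 and Dnajb1 and the farther pair of Hspb1, whose flank holds the nearer one, with 20 bases on either side, in the direction of transcription. Capitals again mark the units. That of Hsph1 is chr12:10427312-10427364 on the plus strand, that of Hspb1 is chr12:26432403-26432450 on the minus strand, that of Dnajb1 is chr19:41431125-41431172 on the minus strand, and that of Dnaja1 is chr5:60638393-60638445 on the plus strand.
Hsph1: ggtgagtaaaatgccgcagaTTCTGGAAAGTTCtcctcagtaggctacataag
Hspb1: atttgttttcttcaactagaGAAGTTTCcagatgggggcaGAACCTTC
Dnajb1: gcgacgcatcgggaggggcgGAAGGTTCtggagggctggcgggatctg
Dnaja1: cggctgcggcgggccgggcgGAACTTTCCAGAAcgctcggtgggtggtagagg
Among the 8 measured genes, a run of 3 or more units was thus present for 1 of the 4 stress-induced chaperones and for 3 of the 4 constitutive ones, with the run shared by Hspd1 and Hspe1 counted for both.

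Before the results, the arrays as a whole were compared. Any pair of arrays correlated between 0.991 and 0.996, 0 pairs held identical values, and array medians lay between 5.43 and 5.50. RNA quality was read from the Gapdh and beta-actin control sets, as the log2 signal of the 3' set over the 5' set, which averaged 0.563 ± 0.044 in exposed and 0.614 ± 0.083 in control animals (SD, n = 5 each), a difference with a two-sided exact permutation p of 0.278. Control animal 5 had the highest ratio, 0.735, and exposed animal 5 the lowest, 0.494. Hepatocyte markers averaged 13.27 to 13.41 in exposed and 13.28 to 13.45 in control livers, and 11 of the 12 listed were measured. All 12 chaperone probe sets passed a filter on low values, a mean over all animals above the median probe set's 5.47.

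The comparison of exposed with control livers asks whether the effluent was accompanied by another level of chaperone mRNA. Livers of exposed rats had a lower mean for 7 of the 8 chaperones and 10 of the 12 probe sets, with the largest differences for Hspb1 and Hsph1. In limma's test with Benjamini-Hochberg adjustment over 31042 probe sets, 0 of the 12 were called at 0.05 and their adjusted p lay between 0.879 and 0.991. The background was likewise 0%, with 0 probe sets called and 0.879 as the smallest adjusted p. At an unadjusted p under 0.05, 4 of the 12 were lower in exposed animals, beside 2.39% of all probe sets. A lower mean of any size was found for 48.0% of all probe sets. The groups overlapped for all 12 chaperone probe sets, beside 0.892% of all probe sets without overlap. As these differences chose the list, nothing is read from the counts. In whole liver, a change of mRNA per cell and a change in the share of a cell type cannot be told apart.

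**Figure D1:**
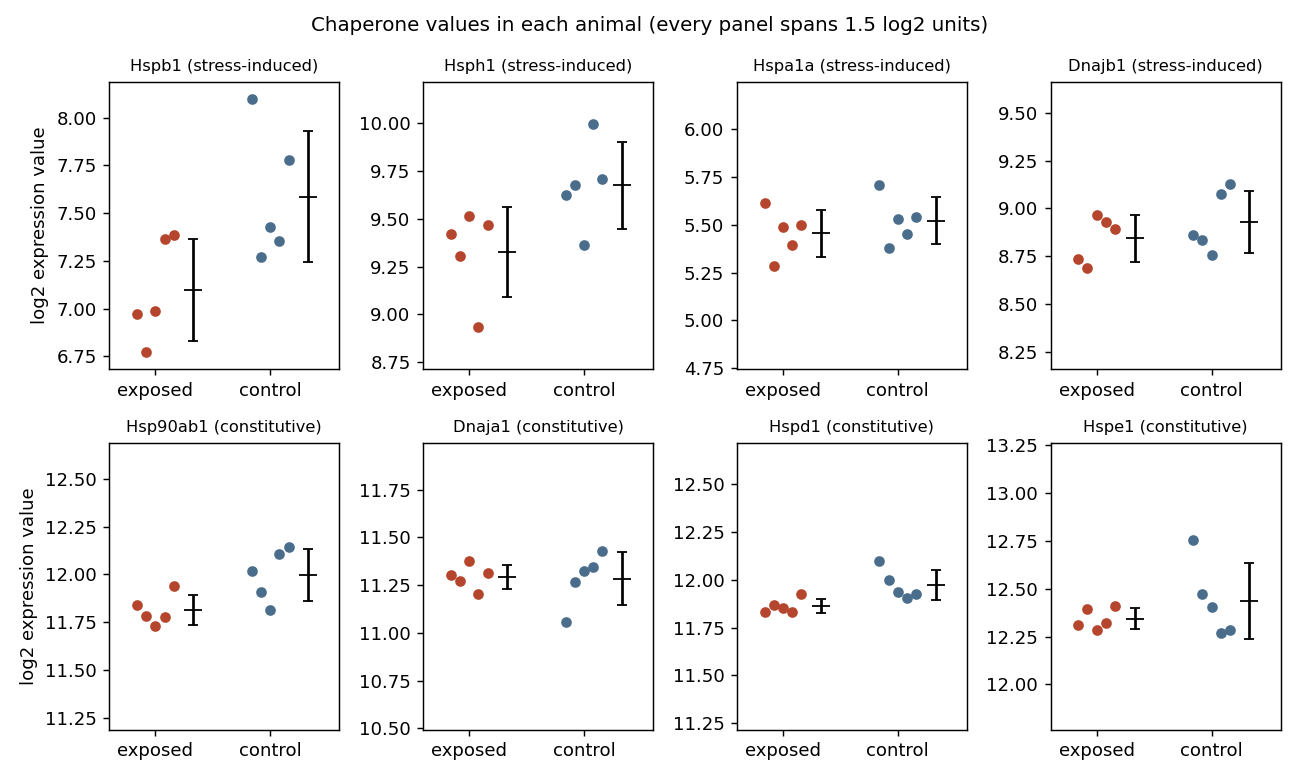
Log2 expression value of the 8 chaperones, each by its probe set of highest mean, with exposed rats on the left and control rats on the right of each panel. Points are animals 1 to 5 from left to right, and the bar is the mean with its SD. Every panel spans the same 1.5 log2 units, so that the wide scatter of Hspb1 and the narrow one of Hspd1 can be compared, while heights in different panels cannot.

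Hspb1 is the small heat shock protein Hsp27, an ATP-independent holder of unfolded proteins that also protects the actin skeleton. Its log2 values were 6.97, 6.77, 6.99, 7.36 and 7.39 in exposed animals 1 to 5, against 8.10, 7.27, 7.43, 7.35 and 7.78 in control animals 1 to 5. Exposed animals 1 to 3 lay below every control animal, and exposed animals 4 and 5 lay within the control range. The difference was -0.49 ± 0.16 on the log2 scale (SE, limma, 95% interval -0.84 to -0.14), a 1.40-fold lower level in exposed livers. Control animal 1 was the highest, and without it the difference was -0.36. Hspb1 also varied more between animals of a group than most probe sets, with an SD of 0.31 at percentile 96.2 of all probe sets, where the median probe set had 0.13.

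Hsph1, the Hsp110 that exchanges nucleotide on Hsp70, was read by a pair of probe sets. The brighter one gave 9.42, 9.30, 9.52, 8.93 and 9.47 in exposed animals, against 9.62, 9.68, 9.37, 10.00 and 9.71 in control animals. Exposed animal 4 was the lowest of the 10 and control animal 4 the highest, and control animal 3 lay inside the exposed range. The difference was -0.35 ± 0.13 (SE, 95% interval -0.62 to -0.07). It was -0.25 without exposed animal 4. The second probe set of Hsph1 gave 7.76, 7.67, 7.80, 7.15 and 7.83 in exposed animals, against 7.85, 7.92, 7.65, 8.37 and 8.13 in control animals. Its difference, -0.35 ± 0.15, was close to that of the first, with the same animals at both ends, and became -0.22 without exposed animal 4.

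Hspa1a is the stress-inducible cytosolic Hsp70 and in most tissues the chaperone with the strongest response to heat. Its probe set gave 5.61, 5.28, 5.49, 5.39 and 5.50 in exposed animals, against 5.71, 5.38, 5.53, 5.45 and 5.54 in control animals. The groups lay almost on top of each other, with a difference of -0.07 ± 0.08 (SE, 95% interval -0.24 to 0.10) that was -0.02 without control animal 1. The mean of this probe set, 5.49, lay next to that of the median probe set, 5.47, and its signal over background is not known, so that a change could be missed. Hspb1 and Hspa1a thus had differences of unequal size, and the difference between them was not tested. Hspa1a has a near-identical copy, Hspa1b, so that the probes may read both. Besides this probe set, 1 other names Hspa1a among several genes and was not analysed.

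Dnajb1 (Hsp40) is the J-domain protein that works with inducible Hsp70. Its brighter probe set gave 8.74, 8.69, 8.97, 8.93 and 8.89 in exposed animals, against 8.86, 8.83, 8.75, 9.07 and 9.13 in control animals. Control animals 4 and 5 lay above all exposed animals and the other 3 among them. The difference was -0.09 ± 0.09 (SE, 95% interval -0.28 to 0.10), and -0.07 ± 0.06 on the second probe set. It ranged from -0.16 in the fit with Dbp, a clock output gene, to -0.04 without control animal 5.

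Of the constitutive chaperones, Hsp90ab1, the Hsp90 made in unstressed cells, had the largest difference. Its values were 11.84, 11.78, 11.73, 11.78 and 11.94 in exposed animals, against 12.02, 11.91, 11.81, 12.11 and 12.14 in control animals. Exposed animals 2, 3 and 4 lay below all control animals, and exposed animals 1 and 5 within their range. The difference was -0.18 ± 0.07 (SE, 95% interval -0.34 to -0.02), and -0.15 ± 0.07 on the second probe set of Hsp90ab1.

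Dnaja1, the J-domain partner of constitutive Hsp70 that also serves import into mitochondria, did not share this direction. Its values were 11.30, 11.27, 11.38, 11.20 and 11.31 in exposed animals, against 11.06, 11.27, 11.33, 11.34 and 11.43 in control animals, so that the exposed values lay inside the control range. The difference was 0.01 ± 0.07 (SE, 95% interval -0.15 to 0.17). The second probe set gave 0.07 ± 0.10, which became 0.16 when control animal 5 was left out and 0.03 when control animal 1 was. The sign of the first was not stable, with values from -0.05 without control animal 1 to 0.07 with the RNA quality ratio as a covariate.

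Hspd1, the chamber of the mitochondrial chaperonin, had 11.83, 11.87, 11.85, 11.83 and 11.93 in exposed animals, against 12.10, 12.00, 11.94, 11.91 and 11.93 in control animals. Exposed animals 1 to 4 lay below all control animals, and exposed animal 5 among them. The difference was -0.11 ± 0.06 (SE, 95% interval -0.23 to 0.01), a 1.08-fold lower level. Its spread within groups was small, an SD of 0.06 at percentile 3.88 of all probe sets.

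Hspe1, its lid, had 12.31, 12.39, 12.28, 12.32 and 12.41 in exposed animals, against 12.76, 12.47, 12.41, 12.27 and 12.28 in control animals. Control animal 1 stood above the rest, and control animals 4 and 5 lay close to the lowest exposed animal. The difference was -0.09 ± 0.09 (SE, 95% interval -0.28 to 0.10), and only -0.01 without control animal 1.

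**Figure D2:**
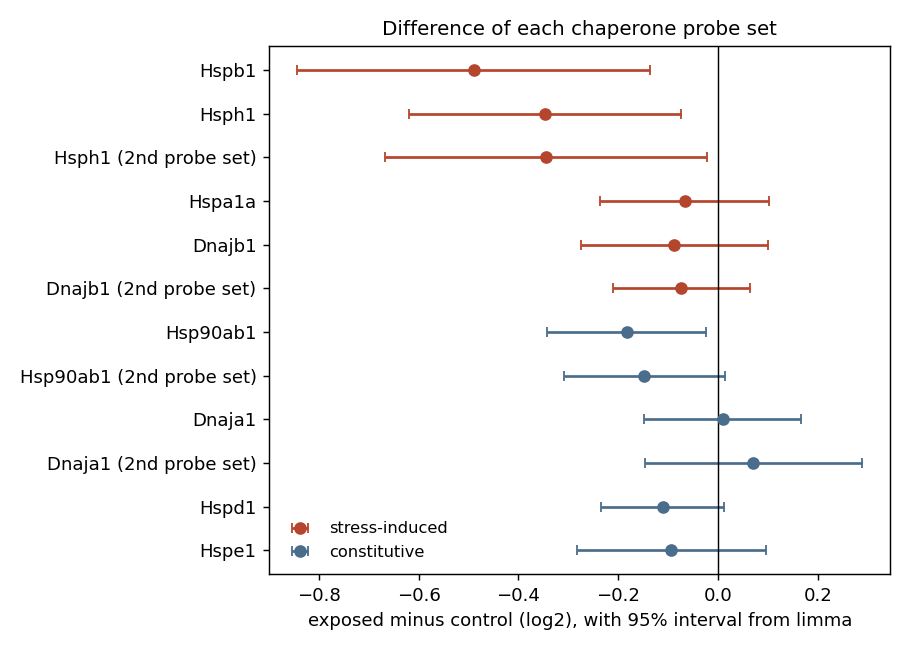
Exposed minus control difference in log2 units (horizontal axis) for the 12 chaperone probe sets, with 95% intervals from the limma fit, stress-induced genes in red and constitutive ones in blue. Of the 12 points, 10 lie below 0, and the intervals of Hspb1, Hsph1 (both probe sets) and the first probe set of Hsp90ab1 do not reach 0, although none passed after adjustment.

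By class, the 4 stress-induced chaperones had a median difference of -0.22, from -0.49 to -0.07, and all had a lower mean in exposed livers. The 4 constitutive ones had a median of -0.10, from -0.18 to 0.01, with 3 lower. The median over all probe sets was 0.00. A score per animal, the mean over the genes of a class of each value minus the gene's mean over the 10 rats, averaged -0.124 ± 0.111 in exposed and 0.124 ± 0.140 in control animals for stress-induced chaperones (SD, n = 5 each). For constitutive chaperones it averaged -0.047 ± 0.042 in exposed and 0.047 ± 0.043 in control animals. The score of the stress-induced class was lowest in exposed animal 2, at -0.292, and highest in control animal 1, at 0.268. The wider difference of the stress-induced class went with a wider spread between animals. The SD within groups ranged from 0.12 to 0.31 over the stress-induced genes and from 0.06 to 0.15 over the constitutive ones, each by its brightest probe set. Of the stress-induced genes, Hspa1a (0.12) and Dnajb1 (0.14) lay inside the constitutive range. Over all probe sets it ranged from 0.08 to 0.31 in the stress-induced class and from 0.06 to 0.18 in the constitutive class. Levels of the classes were not set against each other, since a probe set's brightness depends on its probes.

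The co-variation of the chaperones over the 10 rats is another reading than the exposed minus control values that chose the list. It too was tested with earlier results of these data known. For each pair of genes, Pearson's r was computed on values with the group means removed, so that it reads shared deviations within groups, and given a two-sided p by exact permutation within groups. Adjustment was over 32 relations, 28 between different genes and 4 between probe sets of the same gene. Same-gene relations are likely to be positive from the start, and including them can lower the adjusted p of other pairs. Adjustment over the 28 pairs alone was not run. Of the 28 pairs, 18 were positive and 10 negative, with a median r of 0.20, and 1 passed the threshold of 0.05.

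That pair was Hspd1 with Hspe1, the chamber and its lid, which share the stretch of sequence printed above. Their r was 0.947 (exact permutation p = 6.9e-04, adjusted p = 0.011) and Spearman's rho 0.879 (p = 0.0026, adjusted p = 0.028). The adjusted p of the rho is shared with the same-gene relation of Dnajb1, so that it depends on same-gene relations being in the adjustment. Hspd1 and Hspe1 were both highest, relative to their group, in control animal 1 and low in control animals 4 and 5. Among control animals both fell from animal 1 to animal 4, while Dnaja1, Dbp and the RNA quality ratio rose from animal 1 to animal 5. In exposed animals Hspd1 and Hspe1 did not fall in that order. The permutation treats animals of a group as exchangeable, and a part of the replicate order was not tested. Leaving out control animal 1 and exposed animal 5, whose Hspd1 deviations were farthest from the median, gave r = 0.864, and leaving out control animals 1 and 2, farthest by the Hspd1 value itself, gave 0.736. The correlation was 0.818 among exposed animals and 0.983 among control animals, each over 5 rats and given without a test. Among 31041 other probe sets, Hspe1 ranked 4 by likeness to Hspd1, and Hspd1 ranked 14 by likeness to Hspe1. Leaving out each animal gave r between 0.846, without control animal 1, and 0.969, without exposed animal 5. Without exposed animal 2 or 5 or control animal 2 or 3 the adjusted p was 0.056, with r still between 0.949 and 0.969. Against the RNA quality ratio both genes had negative values that did not pass, r = -0.782 for Hspd1 (exact permutation p = 0.028, adjusted p = 0.381) and -0.775 for Hspe1 (p = 0.045, adjusted p = 0.381). Without control animals 1 and 5, farthest in the ratio's deviations, these were -0.709 for Hspd1 and -0.457 for Hspe1. With that ratio as a covariate their correlation was 0.866 (adjusted p = 0.051).

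**Figure D3:**
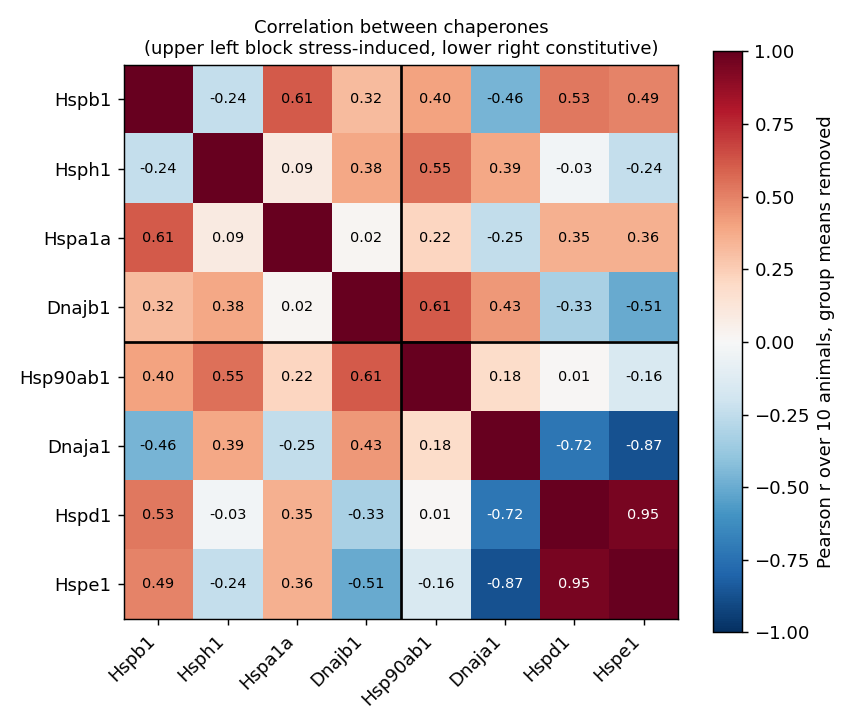
Pearson's r between the 8 chaperones over 10 animals with group means removed, on a colour scale from -1 (blue) to 1 (red). Black lines part the stress-induced genes (upper left) from the constitutive ones (lower right). Hspd1 with Hspe1 stands at 0.95 and Dnaja1 with Hspe1 at -0.87, while the stress-induced block runs from -0.24 to 0.61.

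Dnaja1 had negative correlations with the chaperonin genes, which did not pass. Its r with Hspe1 was -0.874 (exact permutation p = 0.017, adjusted p = 0.134) with Spearman's rho -0.782. Control animal 1 was lowest in Dnaja1 and highest in Hspe1. Without control animals 1 and 5 the r was -0.417, and with the second probe set of Dnaja1 it was -0.491. Leaving out control animal 1 alone gave -0.554, and leaving out control animal 5 alone gave -0.847. The relation thus rests mostly on control animal 1 and on 1 probe set. With Hspd1, Dnaja1 had an r of -0.723 (adjusted p = 0.329), which was -0.082 without control animals 1 and 5. Against the RNA quality ratio Dnaja1 had an r of 0.690 (exact permutation p = 0.090, adjusted p = 0.425), and -0.123 without control animals 1 and 5. With that ratio as a covariate, the r of Dnaja1 was -0.741 with Hspe1 and -0.406 with Hspd1. The part of RNA quality in these relations was not tested beyond that fit.

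**Figure D4:**
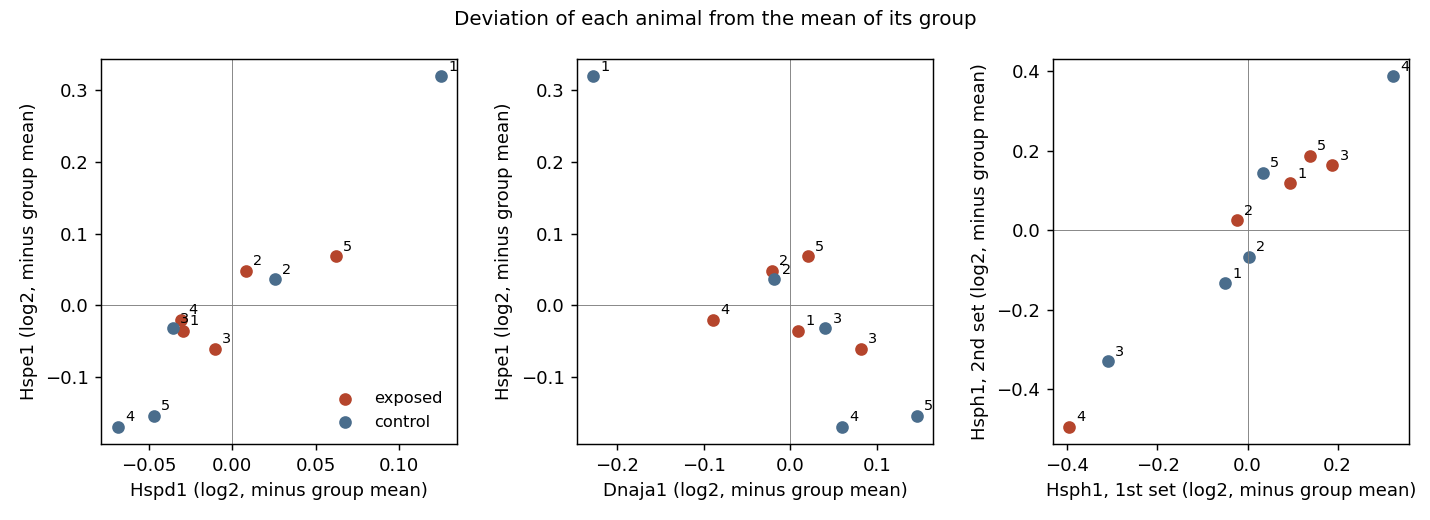
Deviation of each rat from its group's mean in log2 units, for Hspd1 and Hspe1 (left), Dnaja1 and Hspe1 (middle) and both probe sets of Hsph1 (right). Numbers are the animals, red for exposed and blue for control. Control animal 1 lies at the far end of the left and middle panels, and exposed animal 4 and control animal 4 at the ends of the right one.

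Among stress-induced chaperones, the 6 pairs had r from -0.24 to 0.61 with a median of 0.20. None passed, and at an unadjusted exact permutation p under 0.05 there were 0 pairs by Pearson's r and 1 by Spearman's rho. The highest was Hspb1 with Hspa1a, at 0.614 (adjusted p = 0.329), with a Spearman's rho of 0.782 (exact permutation p = 0.016, adjusted p = 0.110). The r was 0.334 without control animal 1 and exposed animal 5, farthest in Hspb1, and -0.014 without control animal 1 and exposed animal 2, farthest in Hspa1a. Hspb1 and Hsph1, whose exposed minus control differences were the largest, had an r of -0.239 (adjusted p = 0.680). Hspb1 was highest in control animal 1 and Hsph1 in control animal 4. The 16 pairs across the classes ran from -0.51 to 0.61 with a median of 0.35, and 0 passed. Among them Dnajb1 with Hsp90ab1 had 0.612, which was 0.271 without control animals 3 and 5.

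Probe sets of the same gene show how much of this spread repeats between measurements on the same array. The probe sets of Hsph1 had an r of 0.975 (exact permutation p = 1.4e-04, adjusted p = 0.0044), and 0.920 without exposed animal 4 and control animal 3. Of 31041 other probe sets, the second Hsph1 set ranked 1 by likeness to the first. Those of Dnajb1 had 0.848 (adjusted p = 0.067), those of Dnaja1 0.753 (adjusted p = 0.329) and those of Hsp90ab1 0.716 (adjusted p = 0.272). Probe sets on 1 array share the RNA and its handling.

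The rats also differed in Dbp, a clock output gene whose mRNA swings widely over the day, while the labels give no hour of sampling. Dbp had 7.28, 6.79, 8.65, 8.80 and 9.47 in exposed animals, against 5.80, 6.50, 6.97, 8.67 and 9.34 in control animals. Dnajb1 had an r with Dbp of 0.874 (exact permutation p = 0.0090, adjusted p = 0.289 over 32 relations with Dbp, the RNA ratio, Rbm3 and Cirbp). Without control animals 1 and 5 it was 0.881, and leaving out each animal gave 0.818 to 0.929. Dnaja1 had 0.658 and Hspe1 -0.671 with Dbp, both with an adjusted p of 0.381. Of the 32 relations, 0 passed and 3 were at an unadjusted p under 0.05. The part of sampling time or of RNA quality in the chaperone differences was not tested beyond the fits with these measures as covariates, which left 10 of 12 probe sets lower with the RNA ratio and 11 of 12 with Dbp.

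Genes most like each chaperone over the 10 rats are named here by r with group means removed, as a description without a test, among probe sets that name 1 gene and with each gene counted at its highest r. Probe sets with no gene name, several names or the chaperone's own could rank higher, and Mms22l ranked 6 among all probe sets for Hspb1. Hspd1 was closest to Uqcc5, an assembly factor of respiratory complex III (0.956), Rcc1, which loads the GTPase Ran (0.955), and Fam204a (0.952). Hspe1 was closest to Cklf, a chemokine-like factor (0.987), Chchd2l3 (0.964) and Nars2, the mitochondrial asparaginyl-tRNA synthetase (0.963). Dnaja1 was closest to the transcription factor Zfhx3 (0.990), Fam8a1 (0.977) and Parp4 (0.976). For Dnajb1 they were Amacr, a racemase of bile acid and branched fatty acid oxidation (0.957), Ythdf2, a reader of methylated mRNA (0.949), and Tbc1d14 (0.948). Hsph1 lay closest to Slc35e1 (0.936), Zfp512b (0.933) and the cap methyltransferase Tgs1 (0.933), and Hsp90ab1 to Il17re (0.949), Elavl2 (0.940) and Cmahp (0.933). Hspb1 lay closest to Mms22l (0.946), Adgrg2 (0.929) and Bpifa2 (0.904), and Hspa1a to Rab28 (0.941), glutathione reductase Gsr (0.938) and Elp3 of Elongator (0.935).

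Partners of the chaperones were described from lists, each gene by its probe set of highest mean, with 0 called in every list and a background of 0%. For comparison, 50.9% of all 14217 genes had a lower mean in exposed livers. Hsp90 co-chaperones, which load clients on Hsp90 and pace its ATP cycle, were lower for 12 of 17 genes with a median difference of -0.08, and 5 had an unadjusted p under 0.05, beside 2.39% of all probe sets at such a p and lower. Their mean level was 8.30 to 8.45 in exposed and 8.48 to 8.54 in control animals, without overlap, which held for 1 of the 20 lists described here. Ahsa1, which activates the Hsp90 ATPase, differed by -0.17 ± 0.06 (SE). Fkbp5, a glucocorticoid-induced partner of steroid receptor complexes, differed by -0.25 ± 0.10, and Chordc1 by -0.21 ± 0.09. Ahsa1 had 8.76, 8.75, 8.68, 8.57 and 8.83 in exposed animals, against 8.91, 8.92, 8.78, 8.89 and 8.94 in control animals. Only exposed animal 5 lay above the lowest control animal, number 3.

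The cytosolic chaperonin TRiC and prefoldin, which fold actin and tubulin, were lower for 12 of 13 genes, with a median of -0.08 and 1 at an unadjusted p under 0.05, Cct8 at -0.16 ± 0.07. Their mean level was 9.63 to 9.71 in exposed and 9.69 to 9.84 in control animals. Partners that exchange nucleotide on Hsp70 or link it to Hsp90 were lower for 10 of 11, with a median of -0.05, 0 at such a p and Stip1, the link itself, at -0.16 ± 0.09. J-domain co-chaperones were lower for 22 of 30, with a median of -0.05, and at such a p 2 were lower and 1 higher. Dnaja4 at -0.21 ± 0.09 and Dnajc18 at 0.21 ± 0.07 stood at opposite ends. Other Hsp70 and small heat shock genes were lower for 7 of 16, with a median of 0.02. Mitochondrial folding genes and proteases were lower for 8 of 10, with a median of -0.04, and Hspa9, the mitochondrial Hsp70, differed by 0.02 ± 0.10.

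**Figure D5:**
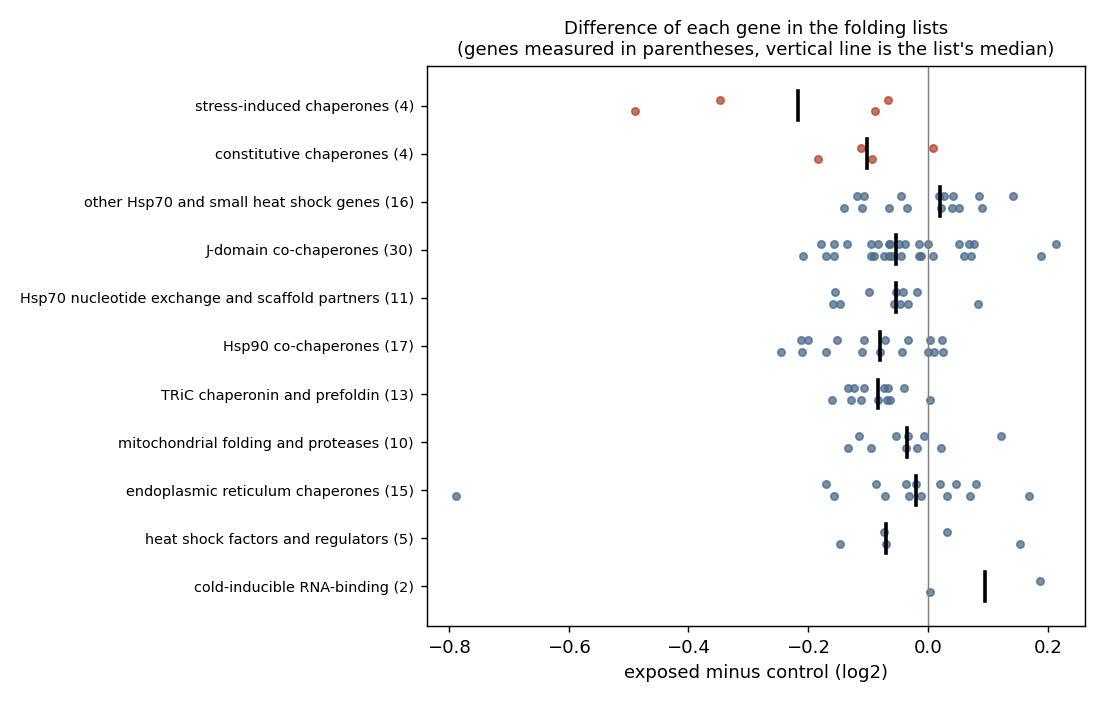
Exposed minus control difference in log2 units of each measured gene (points) in the 2 chaperone classes (red) and 9 lists of related genes (blue), with each list's median as a vertical line and its number of genes in parentheses. Medians of the TRiC and Hsp90 co-chaperone lists lie at -0.08, that of the other Hsp70 and small heat shock genes at 0.02.

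Chaperones of the endoplasmic reticulum, which answer to another stress pathway, were lower for 9 of 15 genes with a median of -0.02. Hspa5 (BiP) differed by -0.02 ± 0.08, Hsp90b1 by -0.09 ± 0.09 and Hyou1, the most variable, by -0.79 ± 0.40. For Hyou1, exposed animal 2 had 5.90, against 7.71 to 8.38 in the other exposed animals and 7.56 to 8.84 in control animals. The difference of Hyou1 thus leans on that animal. Heat shock factors and their regulators were lower for 3 of 5 genes. Hsf1 differed by -0.15 ± 0.09, Hsf4 by 0.03 ± 0.07 and Hsbp1, an inhibitor of the HSF1 trimer, by -0.07 ± 0.07. Hsf2bp, under the low-value limit of 5.47, differed the other way, by 0.15 ± 0.09. Hsf2 differed by -0.07 ± 0.06 on its brightest probe set. Dimmer probe sets of Hsf2 gave 0.02 ± 0.07, -0.16 ± 0.07 and -0.10 ± 0.09, the last under the low-value limit of 5.47. Rbm3 and Cirbp are RNA-binding proteins that respond to cold, opposite to the chaperones. Rbm3 had 7.91, 7.73, 7.87, 7.88 and 7.93 in exposed animals, against 7.63, 7.67, 7.99, 7.58 and 7.52 in control animals, a difference of 0.19 ± 0.09. Cirbp differed by 0.00 ± 0.08 on its brightest probe set, while its dimmer ones gave 0.18 ± 0.05 and 0.25 ± 0.10. Both lay under the low-value limit of 5.47, and the first had no overlap between groups, beside 0.892% of all probe sets. All lay at an adjusted p of 0.879 or above.

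Markers of other cells and states in the tissue were counted in the same way, and their part in the chaperone values was not tested. Markers of Kupffer cells and macrophages had a higher mean for 10 of 10 measured genes, with a median of 0.21 and a mean level of 8.30 to 9.25 in exposed and 7.96 to 9.19 in control animals. Lymphocyte markers were higher for 12 of 13, with a median of 0.14 and levels of 4.96 to 5.47 in exposed and 4.98 to 5.34 in control animals. Only 4 of these 13 lymphocyte markers lay above the low-value limit of 5.47. Hepatocyte markers were lower for 7 of 11 with a median of 0.00, endothelial markers for 5 of 8 with -0.03, bile duct markers for 4 of 5 with -0.06, stellate cell and fibroblast markers for 4 of 11 with 0.03, and red blood cell markers for 1 of 4 with 0.16. Clock genes were lower for 7 of 15 with a median of 0.07, and immediate early genes for 4 of 13 with 0.04. Group ranges overlapped in each of these lists.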

How the data were processed

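Liver RNA of 10 rats, 5 exposed and 5 control, was hybridised to Affymetrix 3' arrays. Per the submitters' processing notes, the authors used R 2.8.1 and RMA to make the deposited log2 values. RMA removes shifts shared by most genes of an array. Of 31099 probe sets, 57 control sets were left out. The platform annotation names 1 gene for 20826 probe sets, several for 436 and none for 9780, and probe sets of several genes or none name no gene here. All probe sets were fitted with limma 3.58.1 (R 4.3.3, functions lmFit and eBayes, two-sided, Benjamini-Hochberg, threshold 0.05), which was tested on simulated data. Correlations used all 14400 orders of animals within groups, whose smallest p is 6.9e-05. As 2 listed genes have no probe set of their own, 28 gene pairs were tested instead of the 45 planned. The 4 same-gene relations in the adjustment were not in the plan. The chaperones, the gene lists and the tests were chosen with earlier results of these data known. Text names all chaperones, up to 3 genes per other list by smallest p, fixed reference genes, and the 3 genes most like each chaperone. Alternatives were quantile normalization, centring, a filter on low values, a replicate block, array weights, a trended robust prior, RNA quality and Dbp as covariates, other probe sets and leaving out each animal. Promoter sequences and start sites are RefSeq's (GRCr8), matched by symbol for 9 of 10 genes.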

Additional observations from a re-analysis of the deposited data

Results flagged for a closer look

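In 4 of 34 groups of 5 animals examined, 1 animal stood apart from the others of its group by more than Dixon's 95% limit allows, where chance gives about 1 in 20, or 1.70. Exposed animal 4 had 7.15 on the second probe set of Hsph1, against 7.67 to 7.83 in the other exposed animals. It also had 10.21 on the second probe set of Dnaja1, where the others had 10.44 to 10.51. On that probe set control animal 5 had 10.73, against 10.20 to 10.33 in the other control animals. For Rbm3, exposed animal 2 had 7.73, against 7.87 to 7.93 in the others.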

How the results depend on the processing

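All 216 alternative values of single chaperone differences lay within 1 SD of the reported ones, a limit that most of them could not pass. Leaving out 1 of 5 animals cannot move a group mean that far. The low-value filter, the trended robust prior and the replicate block leave the differences unchanged. Within that limit the difference of Hspe1, -0.09 as reported, ranged from -0.18 to -0.01, and that of Hspb1, -0.49 as reported, from -0.57 to -0.36. The first Dnaja1 probe set changed sign in 4 of 18 alternatives. Between 10 and 11 of 12 probe sets were lower in every fit, and 7 of 8 with 1 probe set per gene. The median difference of the stress-induced class lay between -0.28 and -0.18 over all alternatives. That of the constitutive class was -0.16 with the RNA quality ratio fitted, and between -0.13 and -0.06 (without control animal 1) with animals left out. Probe sets called numbered 0, except 1 without exposed animal 1. Those at an unadjusted p under 0.05 numbered 827 with the filter on low values, which tests fewer. Pairs of different genes past the threshold, 1 as reported, numbered 0 with the RNA quality ratio fitted, 2 with Dbp as a covariate and 0 to 1 with animals left out. With same-gene probe sets included, the 2 reported became 1 with the RNA quality ratio fitted, 5 with Dbp as a covariate and 1 to 4 with animals left out, the 4 without control animal 5. The Hspd1 and Hspe1 correlation was 0.866 (adjusted p = 0.051) with the RNA quality ratio and 0.846 to 0.969 with animals left out. The cause of these shifts was not tested. The labels do not say that replicate numbers pair animals. Deviations of same-numbered animals over all probe sets correlated between -0.07 and 0.09, and 0 of 10 animals correlated best with their own number. These values do not show that the numbers carry no shared order. Dbp was lower in animals 1 and 2 than in animals 4 and 5 of both groups, and such an order was not tested. With the replicate block, 0 probe sets were called and the differences were the same by construction, -0.49 for Hspb1. Brightness against background was not available for these summarised values, and 5 animals a group limit precision.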
